A study of Arabidopsis thaliana with 20 samples.

Results

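The drm2 CG-only DMRs of the chromosome arms are 100 bp regions whose methylation in the CG context was called different between drm2 mutants and wild type, and which share no base with a region called different in the CHG or CHH context. A DMR (differentially methylated region) was kept when its start lay outside the pericentromeres, taken as 11.5 to 17.7 Mb of chromosome 1, 1.1 to 7.2 Mb of chromosome 2, 10.3 to 17.3 Mb of chromosome 3, 1.5 to 6.3 Mb of chromosome 4 and 9.0 to 16.0 Mb of chromosome 5. This left 3485 of the 15257 drm2 CG DMRs, out of 60945 distinct DMRs listed for drm2, met1 and cmt3 together. The rule used the position of the DMRs and their overlap, and none of the H3 values given here.

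The study digested chromatin of Arabidopsis thaliana with micrococcal nuclease, which cuts the DNA between nucleosomes, and precipitated the remaining particles with an antibody to histone H3. The plants compared were drm2 mutants and Col-0 wild type, both of the Columbia background, with leaves taken at 3.5 weeks and 2 replicates of each genotype. met1-3 and cmt3 mutants of the same background, age and tissue were profiled beside them, also with 2 replicates each, and the labels give no allele for drm2 or cmt3. DNA methylation, used near the end, came from nrpe1 and swi3b mutants and Col-0, also at 3.5 weeks and with 2 replicates each. Its Col-0 libraries were separate from those of H3. Each deposited table holds 1 profile per genotype that combines both replicates, so every value below is a single value per genotype, with no replicate error and no test.

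DRM2 is the de novo DNA methyltransferase of the RNA-directed DNA methylation pathway, in which small RNAs and transcripts of RNA polymerase V guide it to transposons and repeats. It methylates cytosines in every context, and its loss is best known for lower CHH methylation at short transposons of the chromosome arms. CG methylation is copied at each cell division by MET1, and CHG methylation is kept by CMT3. In the chromosome arms of Arabidopsis, CG methylation without CHG or CHH methylation is the usual form within the transcribed part of protein-coding genes, where it is called gene-body methylation. The direction of the methylation change at each DMR is not given in the tables used here.

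Most of the DMRs lay in protein-coding genes, as most of the arm sequence does. Of the 3485 DMRs, 2196 (63.0%) had their centre in a protein-coding gene, 531 (15.2%) in another annotated gene and 758 (21.8%) outside genes. Most of the 531 lay in pseudogenes, with 436 in pseudogenes and 38 in transcribed pseudogenes, and 34 lay in long non-coding RNA genes. Protein-coding genes cover 65.5% of the bases of the chromosome arms, so the share of DMRs in genes is close to that of the arms as a whole. The share was 8.93% for the 9233 CG-only DMRs of the pericentromeres, 13.7% for the 793 CG DMRs of the arms that share bases with a CHG or CHH DMR, and 10.8% for the 3223 CHH-only DMRs of the arms. Of the 2196 DMRs in protein-coding genes, 1615 lay more than 500 bp from both ends of the gene. A total of 1414 of the 27444 protein-coding genes held at least 1 of the DMRs, and these genes had a median length of 3113.5 bp, against 2078 bp for all protein-coding genes. DMRs lie on a 50 bp grid, so neighbours overlap: the 3485 DMRs formed 2391 runs of overlapping or touching DMRs, of which 1533 were a lone DMR, 858 held 2 or more and the longest held 8.

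H3 coverage is the number of sequenced fragments that lie over a base, averaged here over the 100 bp of the DMR. drm2 coverage was divided by 1.17, the ratio of drm2 to Col-0 coverage in the outer flanks of all drm2 CG windows. A typical DMR had more H3 in drm2: the median was 14.8 fragments per bp in drm2, with an interquartile range of 1.69 to 26.3, and 5.39 in Col-0, with an interquartile range of 0.97 to 24.1. Without scaling, the drm2 median was 17.4. drm2 was higher at 1908 DMRs, lower at 1151 and equal at 426, and all of the 426 (12.2%) held no fragment in either genotype. A further 226 DMRs had fragments in drm2 alone and 176 in Col-0 alone. The median of log2((drm2 + 1)/(Col-0 + 1)) was 0.13, with an interquartile range of -0.24 to 1.13, and the median lay between 0.04 and 0.41 on the 5 chromosomes. The leaves were profiled whole, so more H3 in every cell and H3 in more of the cells cannot be told apart.

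The sum of coverage over all DMRs did not show that difference. Mean coverage was 25.4 fragments per bp in drm2 and 26.2 in Col-0, a log2 ratio of sums of -0.04, with -0.22 on chromosome 2 and values from 0.05 to 0.16 on the other chromosomes. A total of 17 DMRs with a coverage of at least 500 carried much of both sums. Of these, 14 lay within the first 10300 bp of chromosome 2, and the highest, at chr2:3451-3550 outside genes, had 4593 fragments per bp in drm2 and 6816 in Col-0. The other 3 lay at chr5:3253101-3253300 in AT5G10340, where the highest had 1367 fragments per bp in drm2 and 2059 in Col-0. How reads of repeated sequence were placed is not given in the sources used here. Without the 17, the log2 ratio of sums was 0.18.

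Differences of at least 2-fold went mostly one way. With drm2 and Col-0 added together, 2253 DMRs reached a coverage of 10 and 1232 fell below it, with medians of 0.07 in drm2 and 0 in Col-0. Here and below, 2-fold means a difference of 1 or more on the log2((drm2 + 1)/(Col-0 + 1)) scale. Of the 2253 DMRs, 742 (32.9%) were at least 2-fold higher in drm2, 25 (1.11%) were at least 2-fold lower and 1486 lay between. The same shares were 19.7% higher and 1.5% lower over all 11293 drm2 CG DMRs with that coverage. They were 19.7% and 0.83% over 6992 CG-only DMRs of the pericentromeres, 5.52% and 4.2% over 2048 CG DMRs that share bases with a CHG or CHH DMR, and 4.73% and 36.1% over 338 CHH-only DMRs of the arms. On single chromosomes, the share of CG-only arm DMRs higher in drm2 lay between 28.8% on chromosome 3 and 40% on chromosome 5.

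**Figure D1:**
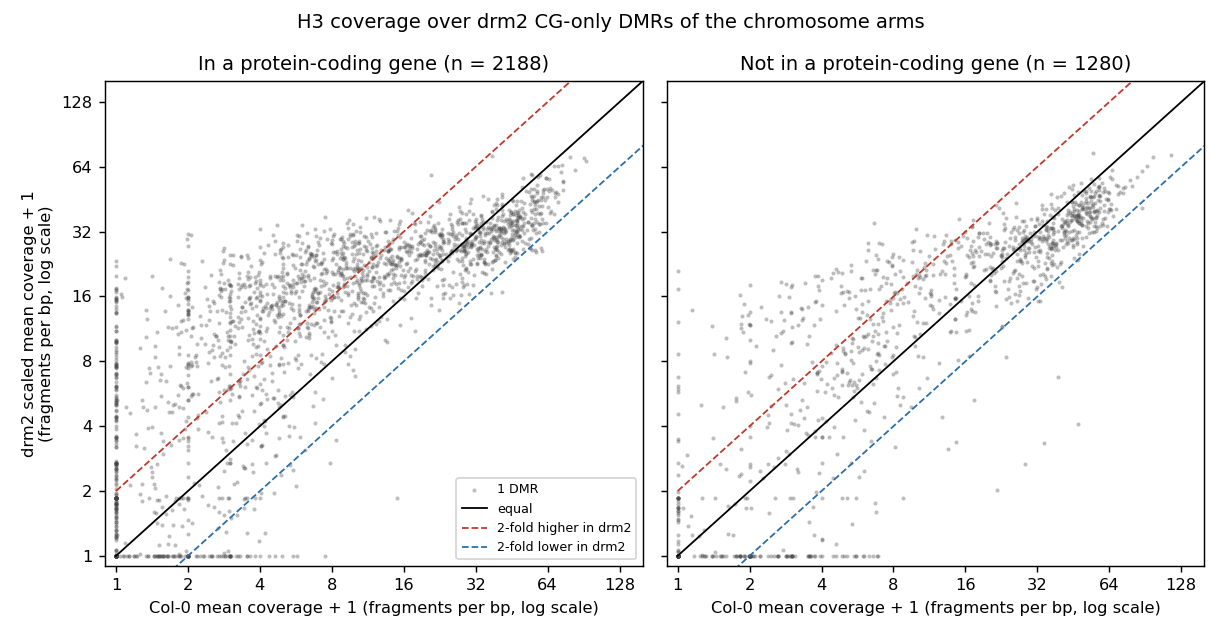
Mean H3 coverage over each drm2 CG-only DMR of the arms in drm2 (scaled, vertical) and Col-0 (horizontal), both plus 1 and on log scales, for DMRs in protein-coding genes (left) and elsewhere (right), without the 17 DMRs of at least 500. In both panels many points with low Col-0 coverage lie above the line of 2-fold higher values, while points with Col-0 coverage over about 40 lie mostly just below the line of equal values. DMRs with no drm2 fragment form the row at the bottom.

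Among regions that reached a coverage of 10, the surroundings of the DMRs differed between the genotypes in the same direction. The windows around the DMRs gave 6392 outer flank bins of 100 bp that lay outside all drm2 DMRs, of which 1393 reached a coverage of 10. Of these bins, 477 (34.2%) were at least 2-fold higher in drm2 and 37 (2.66%) at least 2-fold lower, with medians of 17.5 fragments per bp in drm2 and 9.43 in Col-0. At that minimum, the share of DMRs higher in drm2 is therefore near that of flanks in which no methylation difference was called. With no coverage minimum the shares were further apart. Of all 3485 DMRs, 27.7% were at least 2-fold higher in drm2 and 4.82% lower, against 11.7% and 7.43% of all 6392 flank bins. At the border of the pericentromeres the share differed between the sides: within 0.5 Mb outside it, 62 of 170 CG-only DMRs (36.5%) were higher, with medians of 9.99 in drm2 and 3.84 in Col-0 over all 307 DMRs there, and within 0.5 Mb inside it, 112 of 540 (20.7%), with medians of 23.1 in drm2 and 13.9 in Col-0 over all 740 DMRs there.

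The direction of the difference followed the coverage. Among DMRs with 10 to under 20 fragments per bp in both genotypes together, 68.7% of 479 were higher in drm2, with medians of 11.4 in drm2 and 3.19 in Col-0. At 20 to under 40, 55.6% of 676 were higher, with medians of 19.3 in drm2 and 8.71 in Col-0. At 40 to under 60, 8.04% of 448 were higher, with medians of 25.8 in drm2 and 24.1 in Col-0. At 60 and above, 1 of 650 was higher, with medians of 35.3 in drm2 and 45.4 in Col-0. The median log2 ratios of these classes were 1.64, 1.08, 0.09 and -0.35. From the first to the last class the medians thus spanned 11.4 to 35.3 in drm2 and the wider range of 3.19 to 45.4 in Col-0. Over all 3485 DMRs the interquartile ranges given above were similar. In the same 4 classes, 44.8% of 480, 48.6% of 473, 12.3% of 203 and 2.95% of 237 flank bins were higher, with median log2 ratios of 0.88, 0.97, 0.17 and -0.25, so their first 2 classes were alike and the last 2 were lower. In the lowest class the share was larger for DMRs than for flank bins, and the reason was not tested.

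Within protein-coding genes the share was higher than elsewhere. Among DMRs that reached a coverage of 10, 599 of 1448 (41.4%) in protein-coding genes were at least 2-fold higher in drm2 and 10 (0.69%) lower, with a median log2 ratio of 0.50 over all 2196. Flank bins in protein-coding genes gave 41.0% (375 of 914). In other annotated genes, 66 of 464 DMRs (14.2%) were higher and none lower, with medians of 27.2 fragments per bp in drm2 and 25.9 in Col-0 and a median log2 ratio of -0.01 over all 531. Outside genes, 77 of 341 (22.6%) were higher and 15 (4.4%) lower, with medians of 3.49 in drm2 and 2.57 in Col-0 and a median log2 ratio of 0 over all 758. Inside protein-coding genes, DMRs more than 500 bp from both ends were higher in 44.1% of 1029 cases, and those nearer to an end in 34.6% of 419. Lone DMRs were higher in 42.3% of 881 cases, DMRs in runs of 2 or more in 26.9% of 1372, and DMRs in runs of at least 5 in 13.6% of 103. Placement moved with run length. Protein-coding genes held 71.8% of all lone DMRs, 56.1% of those in runs of 2 or more and 24.6% of those in runs of at least 5. Median coverage was higher in longer runs: it was 11.7 in drm2 and 3.47 in Col-0 for lone DMRs, and 19.5 in drm2 and 16.6 in Col-0 for runs of at least 5.

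**Figure D2:**
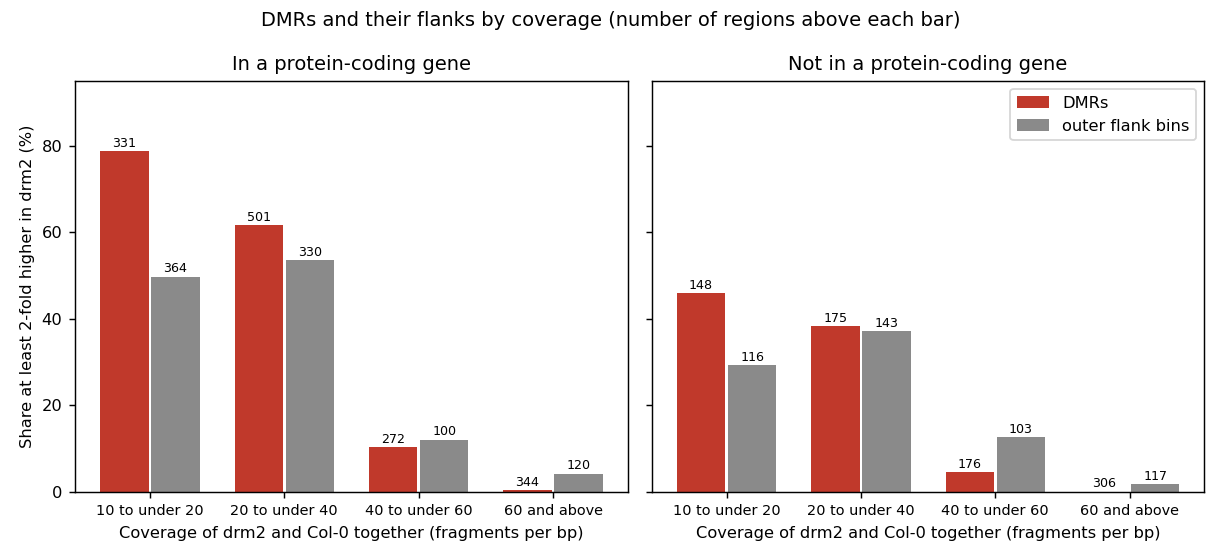
Share of regions at least 2-fold higher in drm2 (vertical, percent) by the summed coverage of drm2 and Col-0 (horizontal, fragments per bp), for the DMRs (red) and the outer flank bins (grey), in protein-coding genes (left) and elsewhere (right). In genes the DMR share is 78.9% at 10 to under 20 and 61.7% at 20 to under 40, against 49.7% and 53.6% of flank bins, and at 60 and above it is 0.29% of DMRs.

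The average profile had a peak of about nucleosome width on the DMR. Over the 3468 DMRs with a coverage under 500, mean coverage peaked at 16.7 fragments per bp in drm2 and 14.7 in Col-0, within 2 bp of the DMR centre in both, over outer flanks of 6.78 in drm2 and 6.32 in Col-0. The width of the peak, midway between flank and top, was 174 bp in both genotypes. In protein-coding genes the peak stood 3.44 times over the flanks in drm2 and 3.45 times in Col-0, and elsewhere 1.65 times in drm2 and 1.64 times in Col-0. The ratio of summed DMR coverage to summed flank coverage over all 3485 DMRs was 3.05 in drm2 and 3.21 in Col-0. Per DMR, with each genotype on its own coverage, the median log2 ratio of DMR to flank was 1.24 in drm2 and 0.89 in Col-0, and the median difference per DMR was 0.17, between 0.08 and 0.30 on the 5 chromosomes. It was 0 for the CG-only DMRs of the pericentromeres and -0.21 for CG DMRs that share bases with a CHG or CHH DMR.

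**Figure D3:**
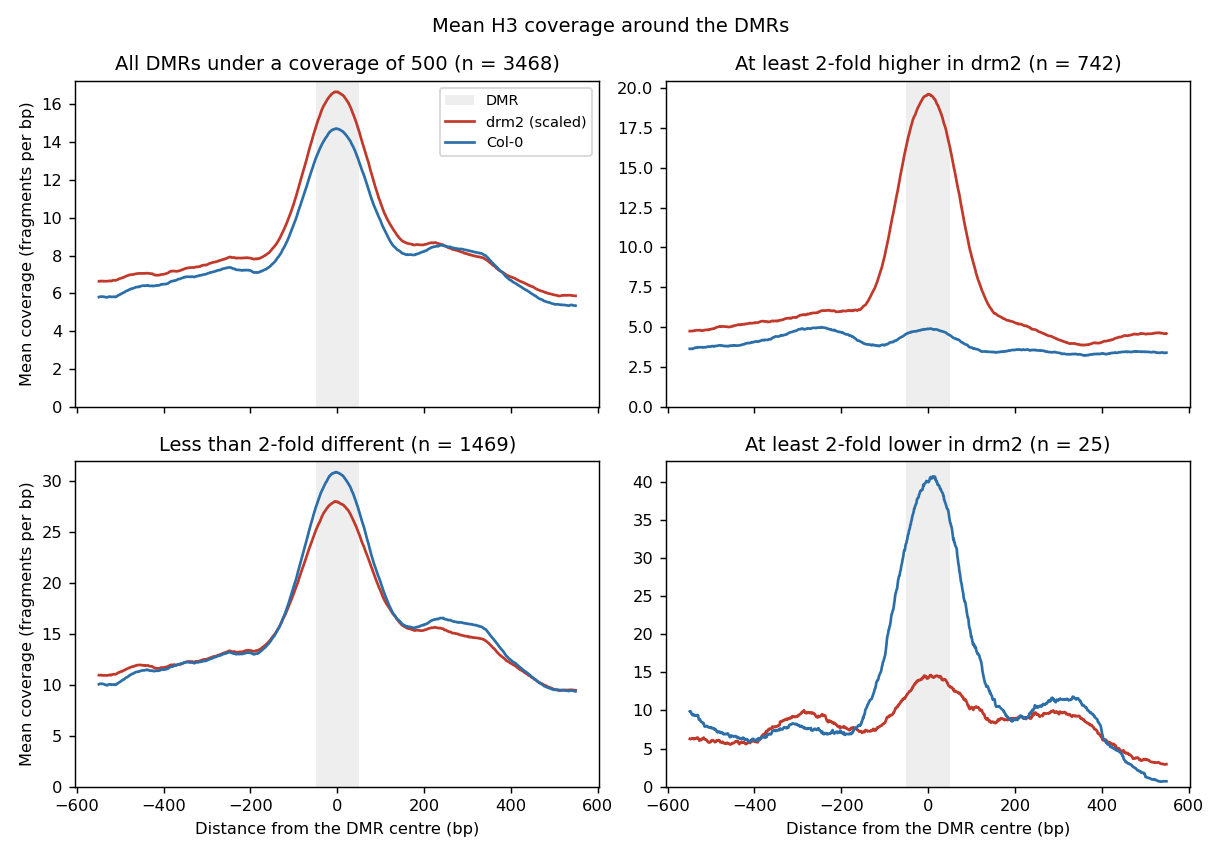
Mean H3 coverage (vertical, fragments per bp) by distance from the DMR centre (horizontal, bp) in drm2 (red, scaled) and Col-0 (blue) for all DMRs with a coverage under 500 and for those at least 2-fold higher, less than 2-fold different and at least 2-fold lower in drm2. The DMRs that are higher in drm2 have a peak of 19.6 in drm2 and 4.89 at the centre in Col-0. Those that are lower have peaks of 14.6 in drm2 and 40.7 in Col-0.

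The classes differed in their Col-0 profile. The 742 DMRs higher in drm2 had little of a central peak in Col-0, with 4.89 fragments per bp at the centre over flanks of 3.67, while drm2 had a peak of 19.6 over flanks of 4.70. The 25 lower DMRs had a Col-0 peak of 40.7 over flanks of 6.21, and drm2 had a peak of 14.6 over flanks of 5.96. The classes were set by these same values, so the heights are a description. Where both genotypes had a peak of at least 10 within 250 bp of the centre (1335 DMRs), the median distance between the drm2 and the Col-0 peak was 17.8 bp and 718 (53.8%) lay within 20 bp of each other, while 201 (15.1%) lay over 100 bp apart. The upper quartile of the distance was 47 bp and the median signed distance was 0, so at most of these DMRs the peaks of the genotypes lay at nearly the same place.

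The 5 protein-coding genes with most of the DMRs show how heights differed along single genes. For the last of these 5, 3 genes tied at 6 DMRs, and the one with most separate runs was taken. AT1G20400 held 13 of them on chromosome 1. The first 11, from chr1:7072601 on, had 28.9 to 57.5 fragments per bp in drm2 and 34.1 to 62.0 in Col-0, with log2 ratios of -0.56 to -0.03. The last 2, at chr1:7075751-7075850 and chr1:7075801-7075900, had 34.6 and 30.8 in drm2, against 17.6 and 12.4 in Col-0. After scaling, drm2 was thus lower at each of the first 11 and higher at the last 2, the DMRs with the least Col-0 coverage in the gene. At the second of these, 37 fragments in drm2 and 14 in Col-0 lay over the central base, a drm2 share of 72.5% (exact 95% interval 58.3 to 84.1). Equal coverage after scaling corresponds to a share of 54.0%, and such intervals cover counting error only. At each of the first 11 DMRs the interval included 54.0%, so their lower values do not exceed counting error. Without scaling, drm2 was above Col-0 at some of these 11 and below it at others.

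EXO70H5, a subunit of the exocyst complex that tethers secretory vesicles, held 11 DMRs on chromosome 2. The first 6, between chr2:12285001 and chr2:12285400, had 7.06 to 17.8 fragments per bp in drm2 and 1.15 to 3.27 in Col-0. The other 5 had at most 1.71 in drm2 and 6.88 in Col-0, and 3 of them were lower in drm2, with 0.96, 1.38 and 1.71 in drm2 against 3.60, 3.91 and 6.88 in Col-0. All of the last 5 were below the coverage minimum. Only 4 of the 11 reached it, all among the first 6 and at least 2-fold higher in drm2. AT2G29065 held 7 DMRs, of which 3 had 25.5 to 32.3 fragments per bp in drm2 and 37.97 to 47.3 in Col-0. The next 4, from chr2:12486451 on, had 12.5 to 25.01 in drm2 and 4.82 to 10.3 in Col-0, with log2 ratios of 1.21 to 1.85. AT4G20953 held 7 DMRs that were all slightly lower in drm2, with 9.05 to 37.4 fragments per bp in drm2 and 12.4 to 47.0 in Col-0. AT5G56890 held 6, of which 3 were at least 2-fold higher: they had 17.1 to 23.7 in drm2 and 4.31 to 8.90 in Col-0. Of its other 3, 2 had 0.06 and 0.96 in drm2, against 1.94 and 3.04 in Col-0, below the coverage minimum, and 1 had 20.2 in drm2 and 18.7 in Col-0. The tied genes had no DMR at least 2-fold higher or lower. PPC2, a phosphoenolpyruvate carboxylase gene, had 16.1 to 32.1 in drm2 and 12.99 to 43.6 in Col-0 over its 6 DMRs, and AT3G60961 had 0 to 24.6 in drm2 and 0 to 16.2 in Col-0 over its 6, of which 4 reached a coverage of 10.

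**Figure D4:**
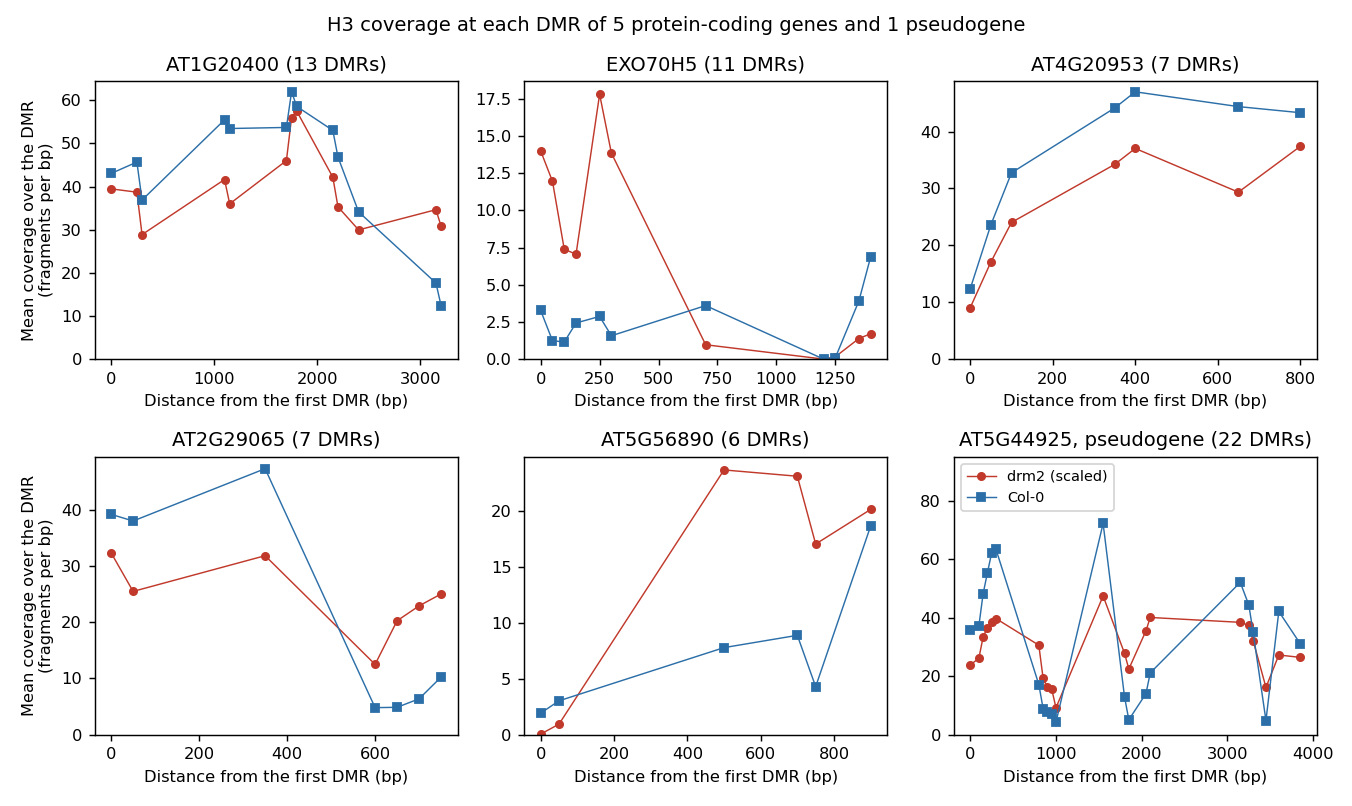
Mean H3 coverage of each DMR (vertical, fragments per bp) by its distance from the first DMR of the gene (horizontal, bp) in drm2 (red circles, scaled) and Col-0 (blue squares), for the 5 protein-coding genes with most of the DMRs (AT5G56890 tied with PPC2 and AT3G60961, not shown) and for the pseudogene AT5G44925. In AT5G44925 drm2 is above Col-0 at the 10 DMRs where Col-0 has at most 21.2 and below it at the 12 where Col-0 has at least 31.1.

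The same alternation was seen in AT5G44925, a pseudogene of chromosome 5 that held 22 of the DMRs and was chosen after its values were seen. At 12 DMRs drm2 had 23.9 to 47.4 fragments per bp and Col-0 31.1 to 72.2. At the other 10, drm2 had 9.22 to 40.1 and Col-0 4.34 to 21.2, and 6 of these were at least 2-fold higher in drm2. The 2 kinds did not overlap in their Col-0 values, while their drm2 values did overlap. The kinds were set by whether drm2 lay above or below Col-0, so this is a description. Of the 1414 protein-coding genes with a DMR, 877 held only 1. Among the 1414, 463 held a DMR at least 2-fold higher in drm2, 7 held a lower one and none held both. With so few genes holding a lower DMR, the lack of genes with both is no result about the genes. Of the 365 genes with 2 or more DMRs that reached a coverage of 10, every such DMR was higher in 103, none was higher in 199, and 63 were mixed.

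Well covered DMRs with the largest differences were taken from the 860 DMRs whose drm2 and Col-0 coverage added up to 50 or more, which formed 559 loci. Of these 860, 4 were at least 2-fold higher in drm2 and 12 at least 2-fold lower, and their median log2 ratio was -0.29. The highest ratio lay at chr1:21607901-21608000 in CYP79C2, a cytochrome P450 gene, with 57.5 fragments per bp in drm2 and 19.7 in Col-0. At its central base 72 fragments in drm2 and 21 in Col-0 gave a drm2 share of 77.4% (67.6 to 85.4). Outer flank coverage there was 0.90 in drm2 and 0.007 in Col-0, so little H3 lay around the DMR in either genotype.

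The next 5 loci in that order were similar in height. The DMR at chr5:2655501-2655600 in AT5G08250 had 39.4 fragments per bp in drm2 and 15.7 in Col-0. That at chr4:14683001-14683100 in AT4G30030 had 38.1 in drm2 and 16.4 in Col-0. The other 3 lay at chr2:12331851-12331950 in the pseudogene AT2G28750 (35.2 in drm2, 16.2 in Col-0), at chr1:19339451-19339550 in the pseudogene AT1G52020 (41.7 in drm2, 20.5 in Col-0) and at chr1:24667451-24667550 in AT1G66210 (34.0 in drm2, 16.6 in Col-0). All 6 shares had an interval above 54.0%. The loci were picked as extremes of the same coverage, so these intervals do not test a difference.

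The lowest ratio at that coverage lay at chr3:4664701-4664800 in AT3G14075, with 15.8 fragments per bp in drm2 and 40.2 in Col-0, and a drm2 share of 32.3% (20.9 to 45.3) at the central base. The DMR at chr3:127901-128000 in AT3G01340 had 24.98 in drm2 and 59.7 in Col-0, and its neighbours on both sides were also at least 2-fold lower. The other 4 loci lay at chr2:38801-38900 outside genes (16.8 in drm2, 39.6 in Col-0), at chr1:10992501-10992600 in AT1G30870 (26.0 in drm2, 59.3 in Col-0), at chr3:8681151-8681250 in AT3G24040 (15.7 in drm2, 36.04 in Col-0) and at chr1:29018551-29018650 in AT1G77230 (24.9 in drm2, 56.0 in Col-0). In all 6 the drm2 share and its interval lay below 54.0%, and these loci too were picked as extremes of the same coverage. Of the 63 loci with a log2 ratio within 0.1 of 0, the most covered was chr2:2901-3000 in AT2G01008, with 1052 in drm2 and 1031 in Col-0. It was followed by chr1:23173401-23173500 in NOGC1, a guanylate cyclase gene, with 63.5 in drm2 and 67.2 in Col-0, and by chr5:2376901-2377000 in the pseudogene AT5G07505, with 61.0 in drm2 and 64.5 in Col-0.

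The 25 lower DMRs formed 19 runs. Of these DMRs, 15 lay outside genes and 10 in protein-coding genes, and 9 of the 25 lay on chromosome 5. That chromosome held 490 of the 2253 DMRs that reached a coverage of 10, and several of the 9 overlap each other. Those outside genes had 1.02 to 40.4 fragments per bp in drm2 and 11.8 to 86.3 in Col-0. The 4 with the lowest ratios were chosen after their values were seen, and form 2 overlapping pairs on chromosome 5. At chr5:7328701-7328800, drm2 had 3.09 fragments per bp and Col-0 46.2, with 4 fragments in drm2 and 48 in Col-0 over the central base, a drm2 share of 7.69% (2.14 to 18.5). The overlapping DMR at chr5:7328751-7328850 had 2.34 in drm2 and 33.0 in Col-0. At chr5:22581351-22581450, drm2 had 1.02 and Col-0 20.7, and at chr5:22581401-22581500, drm2 had 1.68 and Col-0 27.4. Both pairs lay within 120 bp of a protein-coding gene, and their outer flanks were not lower in drm2, with 0.80 in drm2 and 0.54 in Col-0 at the first DMR and 6.51 in drm2 and 3.22 in Col-0 at the third.

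Some DMRs had fragments in 1 genotype alone. Of the 226 with fragments in drm2 alone, 26 reached a coverage of 10, and none of the 176 with fragments in Col-0 alone did. The 26 passed the minimum through drm2 alone, so their place among the DMRs higher in drm2 was fixed by that minimum. The DMRs with most drm2 coverage and no Col-0 fragment, chosen after their values were seen, lay at chr2:1069851-1069950 in UPS4, a ureide permease gene, with 22.3 fragments per bp in drm2, at chr3:9894501-9894600 in PES2, a phytyl ester synthase gene, with 21.2, at chr5:21223901-21224000 outside genes, with 20.03, and at chr2:11635651-11635750 in BSL3, which codes for a phosphatase of brassinosteroid signalling, with 18.8. At the central base of the UPS4 DMR, 28 drm2 fragments and no Col-0 fragment gave a drm2 share of 100% (87.7 to 100). The highest Col-0 coverage without a drm2 fragment was 6.47, at chr2:9005551-9005650 in AT2G20950.

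Genes of the DNA methylation machinery were looked up among the genes that hold a DMR. Of 31 genes of DNA methylation and RNA-directed DNA methylation, 4 did, and DRM2 was not among them, so the mutation itself was not checked in these windows. Over all protein-coding genes, 1414 of 27444 held a DMR. The listed genes with a DMR, here and below, were 4184 to 9523 bp long, against a median of 2078 bp for all protein-coding genes. RDR2, the RNA polymerase that makes double-stranded precursors of small RNAs, had 30.2 fragments per bp in drm2 and 8.57 in Col-0, with a drm2 share of 81.3% (67.4 to 91.1) at the central base. NRPD1 (listed as NRPD1A), the largest subunit of RNA polymerase IV, held 2 DMRs, with 37.7 and 24.3 in drm2, against 30.3 and 9.81 in Col-0. SUVH6, a histone H3 lysine 9 methyltransferase, had 9.62 in drm2 and 2.61 in Col-0. AGO6, an Argonaute of the pathway, held a DMR with no fragment in either genotype. Of 6 genes of DNA demethylation, ROS1 (listed as DML1), the main demethylase of leaves, held 2 DMRs with 0.85 and 4.31 in drm2 and 0 and 0.01 in Col-0, below the coverage minimum. Of 11 SWI/SNF genes, 8 were matched by name, and BRM, a remodelling ATPase, held a DMR with 27.8 in drm2 and 43.4 in Col-0. Of the 8 DMRs of the 3 lists, 5 reached a coverage of 10, and 3 of these 5 were at least 2-fold higher in drm2 and none at least 2-fold lower. Over all DMRs of protein-coding genes with that coverage, 41.4% were higher and 0.69% lower. Among those below it, the second ROS1 DMR had a log2 ratio of 2.39.

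Some of the DMRs were also called different in met1, the mutant of the enzyme that maintains CG methylation. A total of 1131 of the 3485 (32.5%) shared bases with a met1 CG DMR. That share was 16.6% of the DMRs in protein-coding genes, 44.8% of those in other genes and 69.7% of those outside genes. It was 23.3% of the DMRs higher in drm2 (173 of 742), 30.3% of those less than 2-fold different and 72.0% of those lower in drm2 (18 of 25). Among DMRs that reached a coverage of 10, those that share bases with a met1 CG DMR were higher in drm2 in 26.9% of 642 cases and lower in 2.8%, and the others in 35.3% and 0.43% of 1611. DMRs outside protein-coding genes were more frequent among those shared with met1, so placement moved with this difference. Within protein-coding genes the shares higher in drm2 were 34.9% of 232 DMRs shared with met1 and 42.6% of 1216 others. Elsewhere the order was the other way, with 22.4% of 410 DMRs shared with met1 and 12.9% of 395 others higher in drm2. Coverage also differed there. Over all 766 such DMRs shared with met1 the medians were 7.45 in drm2 and 4.07 in Col-0. Over all 523 others they were 23.7 in drm2 and 20.45 in Col-0. Coverage thus moved with this difference, and its part was not tested.

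H3 in met1-3 was given for 1192 of the DMRs. All comparisons share the Col-0 libraries, and 1 fragment of met1-3 counts as 2.69 after scaling, which makes these values coarser. At the 184 DMRs at least 2-fold higher in drm2, the medians were 16.9 fragments per bp in drm2, 4.16 in met1-3 and 4.12 in Col-0. At the 479 less than 2-fold different, they were 25.6 in drm2, 21.3 in met1-3 and 25.8 in Col-0. At the 18 lower in drm2, they were 9.98 in drm2, 26.9 in met1-3 and 34.5 in Col-0, and met1-3 was above drm2 at 16 of the 18. The higher and lower classes were set by drm2 and Col-0, and the met1-3 median lay nearer to that of Col-0 in both. Over all 1192 DMRs the medians were 10.36 in drm2, 2.69 in met1-3 and 4.41 in Col-0. Nearness of met1-3 to Col-0 was thus not particular to the higher class. The 18 lower DMRs were picked for drm2 values below those of Col-0, and some of them overlap. The count of 16 of 18 is therefore a description. At the first of the chromosome 5 DMRs above (chr5:7328701-7328800), met1-3 had 30.4, and at CYP79C2 it had 20.05. For cmt3, 157 DMRs had values, and at the 42 of these higher in drm2 the medians were 16.9 in drm2, 5.85 in cmt3 and 4.12 in Col-0.

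**Figure D5:**
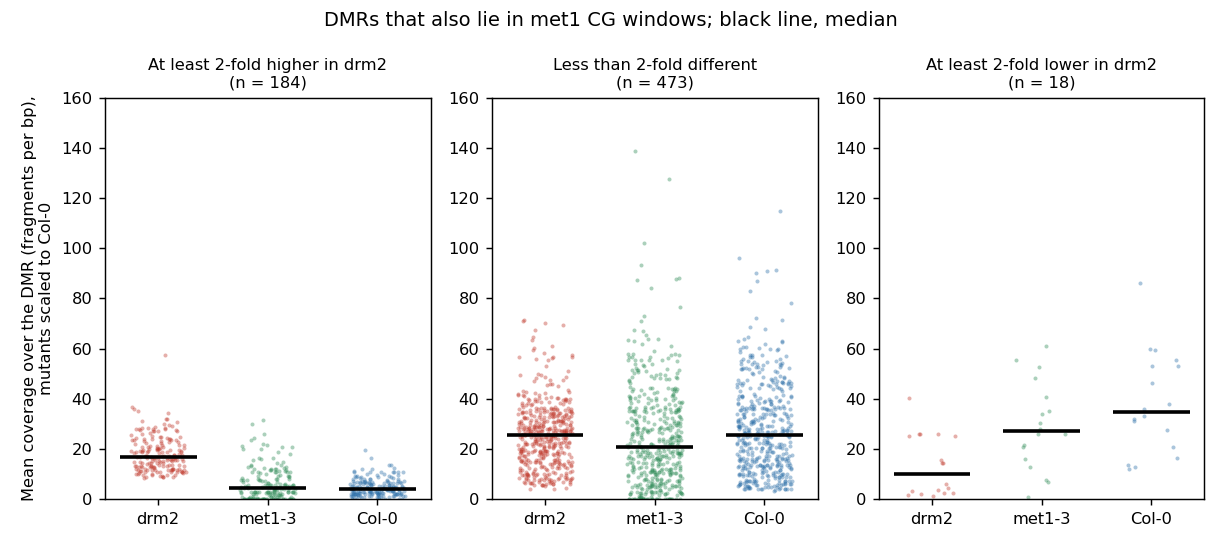
Mean H3 coverage (vertical, fragments per bp, mutants scaled to Col-0) in drm2, met1-3 and Col-0 at the DMRs that also lie in met1 CG windows and have a coverage under 500, by class of the drm2 to Col-0 ratio. Each point is 1 DMR and black lines are medians. In the left panel the medians of met1-3 and Col-0 are 4.16 and 4.12, and in the right panel drm2 is lowest.

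DNA methylation was deposited for nrpe1, swi3b and Col-0 leaves of the same age, around nucleosomes stabilized by RNA polymerase V or SWI3B, and methylation in drm2 was not analysed here. Of the DMRs, 129 lay within the windows around SWI3B nucleosomes, and 127 of them had cytosines with a level in all 3 genotypes, with a median of 23 per DMR. Mean methylation over all contexts was 0.54% in nrpe1, 0.57% in swi3b and 0.59% in Col-0, and 74 of the 127 had no methylation in Col-0. The highest Col-0 level was 18.0%. For the 37 of these DMRs that were higher in drm2, the means were 0.26% in nrpe1, 0.29% in swi3b and 0.31% in Col-0. Around RNA polymerase V nucleosomes, 14 DMRs had data, with means of 0.49% in nrpe1, 6.17% in swi3b and 8.06% in Col-0. One of them, at chr2:8218051-8218150 with 5 cytosines, had 56.4% in swi3b and 52.9% in Col-0, and without it the means were 0.530% in nrpe1, 2.31% in swi3b and 4.61% in Col-0. The tables do not separate CG from other cytosines and give no read depth, so these means are no measure of CG methylation alone. At the 74 DMRs without methylation in Col-0, however, no cytosine with a level in all 3 genotypes was methylated in Col-0, whatever its context.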

How the data were processed

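The H3 tables deposited by the authors hold signal: whole-number fragment coverage at 1099 positions of a 1100 bp window around each DMR, with both replicates of a genotype combined and no normalization recorded. The deposited methylation tables hold a fraction per cytosine position. Per the submitters' processing notes, TAIR10, Bowtie2, Picard, Bismark and methylKit were used, with no roles given, and reads were 50 bp paired-end for H3, per the labels' protocols. The alignment settings and the DMR thresholds are not given in the sources used here.

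Coverage was averaged over the DMR, and drm2 was scaled to Col-0 on the outer flanks of all drm2 CG windows (219 positions on either side). Log2 ratios used a pseudocount of 1, which understates differences at low coverage. Counts of DMRs used a minimum summed coverage of 10. Intervals are exact Clopper-Pearson 95% intervals of the drm2 share at the central base and cover counting error only. Depth is limited to these windows, and the library totals are not used here. Counts per replicate were planned for, but the values are combined coverage, so no test was run. The scaling and calling steps were tested on simulated data, with no counting noise added to Col-0. Changes were planted there only where Col-0 coverage exceeded 19.7, the most that any DMR called higher in drm2 had. Recovery of changes at lower Col-0 coverage was thus not tested.

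Genes came from RefSeq spans of TAIR10.1, which keeps the nuclear chromosomes of TAIR10; strand, exons and sequence were not used. Named DMRs were, among those with a coverage of at least 50 joined into loci, the 6 lowest, the 6 highest and the 3 most covered within 0.1 of 0 on the log2 scale, and also the 5 protein-coding genes with most DMRs (ties by the number of separate runs) and the listed genes. The DMRs and lists were chosen with earlier results of these data known. Python 3.11.15, numpy 2.4.6, pandas 2.3.3, scipy 1.17.1 and matplotlib 3.10.9 were used.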

Additional observations from a re-analysis of the deposited data

How the results depend on the processing

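Other scalings, widths, pseudocounts, coverage minimums and sets of DMRs, and the DMRs without each chromosome, gave 80 alternative values of the 5 summary results. Of these, 64 were counted as unchanged. For ratios this meant no opposite sign and a shift below the standard deviation over the 5 chromosomes. For counts it meant a limited fold change. The standard deviation was 0.16 for the ratio of sums and 0.15 for the median log2 ratio, each larger than the result itself. A value of 0 thus counted as unchanged, as did the median of 0 outside protein-coding genes. The log2 ratio of sums was -0.04 and became 0.18 without scaling, 0.047 with 1 DMR per run, 0.11 without chromosome 2, 0.19 without the 1% most covered and 0.18 without DMRs of at least 500 (the last chosen after seeing the data). The cause was not tested. The median log2 ratio was 0.33 without scaling, 0.39 at a coverage of at least 10, -0.29 at a coverage of at least 50 and 0.50 inside protein-coding genes (the last added after seeing the data). The count of 25 lower DMRs became 14 without scaling, 16 without chromosome 5, 12 at a minimum of 50 and 168 with no minimum. The 742 higher DMRs were 966 with no minimum and 4 at a minimum of 50. At 4-fold, chosen after seeing the data, 287 were higher and 8 lower. Under the other scalings 674 to 909 were higher and 14 to 36 lower. The median DMR-to-flank difference lay between 0.096 and 0.20 under all its alternatives, and remained above 0 without each chromosome. Of 45 alternative values of named DMRs, 44 lay within the counting interval of that DMR and 1, at chr2:2901-3000, did not.

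No paired analysis was possible because each table combines both replicates of a genotype and holds no column per replicate, so leaving out a replicate could not be run either. Ratios at the 1232 DMRs below a coverage of 10 rest on few fragments, and no replicate spread exists against which any difference can be set.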
